A study of Mus musculus with 36 samples.

Results

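The genes examined were 8 genes of calcium entry among the 32285 mouse genes of the deposited count table, chosen by name: Cacna1a, Cacna1c, Cacnb3, Cacng4, Trpv6, Stim1, Stim2 and Orai1. All 8 had a row in the table. Their messenger RNA was measured by RNA sequencing in 2 mouse breast cancer cell lines, AT-3, which came from a mammary tumour of an MMTV-PyMT transgenic mouse, and E0771, which came from a mammary adenocarcinoma. Each line was grown for 24 h and then held for 24 h in 1 of 6 conditions: DMSO as the vehicle, 10 µM NS11021, 10 µM BMS204352, 40 mM KCl, KCl with NS11021, or KCl with BMS204352. NS11021 is an opener of BK potassium channels, and BMS204352 acts on BK channels and on those of the KCNQ family. Every condition had 3 libraries per line, 36 in all, and no control was matched to KCl for osmolarity or chloride, so the effects of potassium, chloride and osmolarity in the KCl conditions cannot be told apart. The labels do not say whether the 3 libraries of a condition came from separate cultures, so the p-values measure the spread between these libraries, which may be technical. Each is a single cell line, so results hold for these 2 lines only.

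Calcium enters cells through several kinds of channel. Voltage-gated channels open when the membrane is depolarised, as it is by raised external potassium, and potassium channel openers move the membrane the other way. Their pore is an alpha-1 subunit, such as those encoded by Cacna1a (the P/Q type of neurons) and Cacna1c (the L type of heart and smooth muscle), and a beta subunit such as the product of Cacnb3 helps carry the pore to the plasma membrane. Cacng4 belongs to the gamma subunit family and is best known for an auxiliary protein of AMPA glutamate receptors. Trpv6 encodes a calcium-selective channel of epithelia that does not need depolarisation to open. In store-operated entry, the endoplasmic reticulum sensors encoded by Stim1 and Stim2 detect loss of stored calcium and open the plasma membrane pore encoded by Orai1.

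The AT-3 libraries held 38.5 to 52.6 M counts each, and those of E0771 31.2 to 47.9 M. Levels are given as CPM, counts per M of the library total, and fold changes come from edgeR's quasi-likelihood test with p-values adjusted by Benjamini-Hochberg over all genes tested. A gene was called at an adjusted p below 0.05, and values after ± are standard errors (SE) of a log2 fold change or standard deviations (SD) of 3 libraries. The labels call both lines breast cancer cells. In AT-3, 5 of 8 epithelial markers had a mean of at least 1 CPM, among them Epcam at 138 CPM, while Krt8 (0.371 CPM), Krt19 (0.559 CPM) and Elf3 (0.588 CPM) were near 0. In E0771 only 2 of 8 did, Epcam had 0.0748 CPM and Cdh1 0.898 CPM, while Krt8 had 182 CPM, so several defining epithelial markers were near 0 in that line. The summed level of 6 fibroblast markers was 37.4 to 70 CPM in AT-3 and 216 to 259 CPM in E0771, with 3 of the 6 at a mean of at least 1 CPM in each line and Dcn and Lum at 0 in E0771. The summed level of 6 leukocyte markers was 2.73 to 22.7 CPM in AT-3 and 5.3 to 21.1 CPM in E0771, and that of 5 neuron markers 0.27 to 1.61 CPM and 0 to 0.331 CPM. The replicate 3 libraries of BMS204352 stood apart on a principal component in each line, as did that of KCl with BMS204352 in AT-3. Results that rest on the replicate 3 libraries of both BMS204352 conditions are therefore also given without those 4 libraries where a call changed, and for some of the sizes that moved.

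On GRCm38 (GENCODE vM21) the genes lie at chr8:84388440-84640246 on the plus strand (Cacna1a), chr6:118587240-119196418 on the minus strand (Cacna1c), chr15:98630840-98644529 on the plus strand (Cacnb3), chr11:107732357-107794557 on the minus strand (Cacng4), chr6:41620624-41636405 on the minus strand (Trpv6), chr7:102267806-102437319 on the plus strand (Stim1), chr5:53998499-54121057 on the plus strand (Stim2) and chr5:123015074-123030456 on the plus strand (Orai1). Cacna1a shares 3.81% of its exon bases, and Orai1 0.305%, with an antisense gene model. The counting strand is not given in the sources used here, so counts over those bases cannot be assigned to either gene. The other 6 genes share no exon base with another annotated gene.

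A RefSeq promoter table on GRCm38.p6 held 9 promoters of 6 of the genes, and had no entry for Cacna1a and Cacng4. The promoters were searched on both strands for TGACGTCA (the full cyclic AMP response element), TGANTCA (the AP-1 element), TGGAAA (the core bound by NFAT factors) and the CArG box bound by SRF, as short motifs of factors that act downstream of calcium or of MRTF and SRF. Those of Cacna1c and Cacnb3, the genes called higher with KCl in both lines, and that of Trpv6 are shown for the 250 bases before the annotated start, with TGGAAA and TGACG, the shorter form of the cyclic AMP response element, in capitals on either strand (TTTCCA and CGTCA are the reverse complements).
Cacna1c, distal start, chr6:119196410-119196659, minus strand: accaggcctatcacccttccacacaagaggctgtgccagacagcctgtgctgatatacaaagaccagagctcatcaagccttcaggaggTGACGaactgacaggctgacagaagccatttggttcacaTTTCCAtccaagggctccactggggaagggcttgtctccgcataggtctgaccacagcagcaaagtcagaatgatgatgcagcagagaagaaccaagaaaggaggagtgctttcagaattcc
Cacna1c, middle start, chr6:119108496-119108745, minus strand: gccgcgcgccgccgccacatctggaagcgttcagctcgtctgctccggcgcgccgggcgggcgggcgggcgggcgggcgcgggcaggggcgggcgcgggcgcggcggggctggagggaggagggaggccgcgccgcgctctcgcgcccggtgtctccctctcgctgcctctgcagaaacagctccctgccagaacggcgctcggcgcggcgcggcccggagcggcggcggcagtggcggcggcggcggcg
Cacna1c, most 3′ start, chr6:118757975-118758224, minus strand: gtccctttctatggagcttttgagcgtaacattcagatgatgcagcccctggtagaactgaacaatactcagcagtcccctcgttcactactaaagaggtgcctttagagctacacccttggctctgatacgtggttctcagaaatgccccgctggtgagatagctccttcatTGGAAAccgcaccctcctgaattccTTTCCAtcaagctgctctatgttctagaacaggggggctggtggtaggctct
Cacnb3, upstream start, chr15:98632078-98632327, plus strand: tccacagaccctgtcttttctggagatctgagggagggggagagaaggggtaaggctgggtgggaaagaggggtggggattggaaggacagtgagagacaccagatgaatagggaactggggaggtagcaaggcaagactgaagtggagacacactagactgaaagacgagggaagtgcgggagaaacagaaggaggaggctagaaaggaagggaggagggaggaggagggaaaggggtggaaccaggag
Cacnb3, downstream start, chr15:98634517-98634766, plus strand: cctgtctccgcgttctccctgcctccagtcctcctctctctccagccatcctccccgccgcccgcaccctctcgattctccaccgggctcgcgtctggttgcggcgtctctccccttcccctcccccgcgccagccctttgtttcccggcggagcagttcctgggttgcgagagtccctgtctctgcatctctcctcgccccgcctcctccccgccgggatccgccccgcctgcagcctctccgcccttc
Trpv6, chr6:41636406-41636655, minus strand: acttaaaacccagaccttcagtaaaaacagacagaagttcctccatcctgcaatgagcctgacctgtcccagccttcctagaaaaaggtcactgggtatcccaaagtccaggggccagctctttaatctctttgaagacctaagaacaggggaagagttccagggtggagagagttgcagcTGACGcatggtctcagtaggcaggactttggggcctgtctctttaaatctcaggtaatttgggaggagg

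The distal Cacna1c promoter held TGACG 161 bases and TGGAAA 122 bases before the start, and the most 3′ one held TGGAAA 77 and 52 bases before it. The Trpv6 promoter held TGACG 69 bases before its start. The middle Cacna1c promoter and both promoters of Cacnb3 held neither. Only the 250 bases before each start were searched. There, not one of the 9 promoters held TGACGTCA, TGANTCA or a CArG box, and 4 of the 9 held TGACG. Besides those of Cacna1c and Trpv6, these were the promoters of Stim1 (223 bases before the start) and Orai1 (151 bases). Over the same 250 bases of 32851 promoters, 17.8% held TGACG, 18.6% TGGAAA, 6.75% TGANTCA, 1.55% TGACGTCA and 1.47% a CArG box. Gene counts do not tell which annotated start was used, and a match is a description of the letters.

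The lines differed in which calcium entry genes they expressed before any treatment. In DMSO, E0771 had more mRNA of both pore subunit genes, AT-3 had more of Cacnb3, Cacng4, Trpv6 and Stim1, and Stim2 and Orai1 were not called different. Cacna1a had 4.85, 4.77 and 4.91 CPM in the AT-3 DMSO libraries and 24.4, 24.6 and 25.1 CPM in those of E0771. The E0771 level was 5.09-fold higher (log2 2.35 ± 0.18, adjusted p = 8.27e-14). Cacna1c had 2.5, 3.99 and 2.47 CPM in AT-3 and 32.2, 33.8 and 33.9 CPM in E0771, 11.2-fold higher (log2 3.48 ± 0.20, adjusted p = 8.79e-16). The 2 lines did not overlap in either gene.

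Trpv6 was expressed in AT-3, at 13.7, 12.8 and 12 CPM in DMSO, and close to absent in E0771. Across all 18 E0771 libraries it had 2 counts, both in 1 DMSO library, and the other 17 libraries were at 0. The floor that 3 counts over the 18 libraries set was 0.00434 CPM. On the summed DMSO counts, 1775 against 2, the AT-3 level was 735-fold that of E0771, with a 95% interval for counting error of 203 to 6.07e+03. The 2 counts may be the mates of 1 read pair, in which case this interval is too narrow. Cacng4 had 277 counts in the 3 AT-3 DMSO libraries and 4 in those of E0771, a ratio of 57.4 with an interval of 22.1 to 212. It had 0 to 10 counts in each E0771 library, 52 in all, with 4 libraries at 0. Both genes fell below the count filter in the E0771 fit and were not tested there.

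Cacnb3 had 70.4, 77.2 and 73.1 CPM in AT-3 DMSO libraries and 31.2, 31.4 and 28.4 CPM in E0771, 2.43-fold lower in E0771 (log2 −1.28 ± 0.10, adjusted p = 5.16e-14). Stim1 was lower in E0771 by less (log2 −0.48 ± 0.06, adjusted p = 2.36e-08). The log2 difference of Stim2 was 0.08 ± 0.07 (adjusted p = 0.303) and that of Orai1 −0.12 ± 0.15 (0.478). In all, 6 of the 8 genes were called between the lines in DMSO, 2 higher and 4 lower in E0771, where 74.5% of all 15969 genes tested were called, so the share of members is near that of all genes.

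Scaled by exon length, as counts per kilobase of exon per M, the order of the genes differed between lines. In AT-3 DMSO libraries Cacnb3 was highest at 18.4 ± 0.852 (n = 3), followed by Stim1 at 10.1 ± 0.481 and Stim2 at 9.63 ± 0.417, whose libraries overlapped. Orai1 followed at 5.73 ± 0.672 and Trpv6 at 3.26 ± 0.216, and Cacng4 (0.55 ± 0.104), Cacna1a (0.424 ± 0.00615) and Cacna1c (0.141 ± 0.0411) came last, each without overlap with its neighbour. In E0771 Stim2 was highest at 10.2 ± 0.272, Cacnb3 (7.56 ± 0.412) and Stim1 (7.2 ± 0.445) overlapped below it, and Orai1 had 5.29 ± 0.706. Cacna1a (2.16 ± 0.0333) and Cacna1c (1.57 ± 0.045) followed, and Cacng4 and Trpv6 were near 0. Per length, then, the 2 voltage-gated pore genes were the scarcest of the 8 in AT-3 and stood above only Cacng4 and Trpv6 in E0771. Exon length was the union of all annotated exons, which overstates the transcript length of genes with many isoforms.

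**Figure D1:**
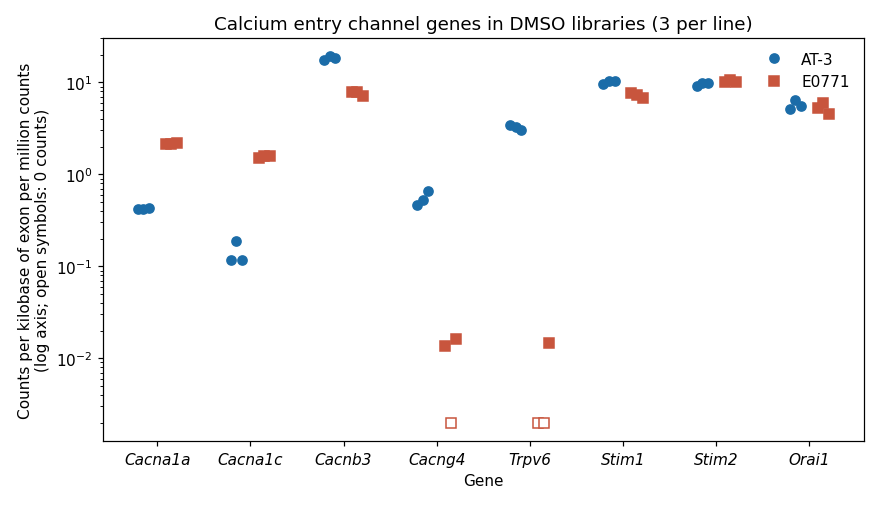
Levels of the 8 genes in the 3 DMSO libraries of each line, in counts per kilobase of exon per M counts on a log axis; each symbol is a library, and open symbols stand for 0 counts. Cacna1a and Cacna1c lie higher in E0771, Cacnb3 and Stim1 lower, and Cacng4 and Trpv6 are near 0 there.

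With 40 mM KCl, Cacna1c and Cacnb3 were called higher in both lines. In AT-3, KCl raised 4 of the 8 genes, Cacna1c, Cacnb3, Cacng4 and Trpv6, and lowered none, where 4.83% of all 14772 genes tested were called (3.08% higher). In E0771 it raised 4 of the 6 genes tested, Cacna1a, Cacna1c, Cacnb3 and Orai1, where 36.4% of 13357 genes were called (17.8% higher). The median log2 fold change was 0.43 over the 8 genes in AT-3 and 0.48 over the 6 in E0771, beside −0.00404 and −0.00602 over all genes tested. The genes were chosen with results of these data known, so these shares describe them and are not independent evidence. The KCl, compound and combined conditions of a line were all set against the same 3 DMSO libraries.

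Cacna1a had the widest range of levels of the genes in E0771, from 5.3 to 50.2 CPM over the 18 libraries. The 3 libraries had 24.4, 24.6 and 25.1 CPM in DMSO, 50.2, 47.7 and 46 CPM in KCl, 15.5, 11.1 and 14.4 CPM in NS11021, and 8.24, 8.82 and 5.3 CPM in BMS204352. With KCl added, NS11021 libraries had 26.6, 24.7 and 26.8 CPM and BMS204352 libraries 19.9, 18 and 11.5 CPM. The groups ran from KCl at the top through KCl with NS11021 and DMSO, which overlapped, then KCl with BMS204352 and NS11021, which overlapped, to BMS204352 at the bottom. No other neighbours in this order overlapped.

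KCl raised Cacna1a 1.96-fold in E0771 (log2 0.97 ± 0.17, adjusted p = 0.000416). NS11021 lowered it 1.81-fold (log2 −0.86 ± 0.18, adjusted p = 0.00285) and BMS204352 3.32-fold (log2 −1.73 ± 0.19, adjusted p = 1.99e-05). Without the 4 replicate 3 libraries the BMS204352 change was −1.53 ± 0.11. Among genes called lower in E0771 whose mean log2 CPM was 2 or more, its fall ranked number 15 of 1747 for NS11021 and number 2 of 1430 for BMS204352. On top of KCl, NS11021 lowered it 1.84-fold against KCl alone (log2 −0.88 ± 0.17, adjusted p = 0.00295) and BMS204352 2.94-fold (log2 −1.56 ± 0.18, adjusted p = 2.53e-05). Ranked the same way, each of these was number 2, of 998 and of 1248 genes called lower.

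The compound effects on Cacna1a in E0771 were not called different between cells with and without KCl. For NS11021 the interaction with KCl was −0.02 ± 0.25 on the log2 scale, with a 95% interval of −0.56 to 0.52 (adjusted p = 0.99). For BMS204352 it was 0.17 ± 0.26, with an interval of −0.38 to 0.73 (adjusted p = 0.843). Departures within these intervals remained compatible with the data. The level with KCl and NS11021 together differed from DMSO by 0.09 ± 0.18 (interval −0.29 to 0.47, adjusted p = 0.738). With KCl and BMS204352 it was 1.5-fold lower than in DMSO (log2 −0.59 ± 0.18, adjusted p = 0.024). That call was lost without any 1 of the DMSO libraries (adjusted p 0.0549 to 0.0641), and without the 4 replicate 3 libraries the change was −0.37 ± 0.10 with the call kept. The share of mitochondrial transcripts was 0.789 to 1.03% in the 3 E0771 libraries with KCl and BMS204352 and 0.678 to 0.75% in the other 6 KCl libraries of that line. Over all 15 other E0771 libraries it was 0.522 to 0.887%, which overlapped the first range. The part of this share in the Cacna1a results was not tested.

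In AT-3, Cacna1a was not called in any of the treatment comparisons. The 3 libraries had 4.85, 4.77 and 4.91 CPM in DMSO, 5.94, 5.4 and 8.69 CPM in KCl, 4.9, 6.45 and 4.88 CPM in NS11021 and 4.45, 6.25 and 4.8 CPM in BMS204352. The KCl libraries lay above the DMSO libraries without overlap, and those of either compound overlapped them. The KCl change was 0.47 ± 0.17 (interval 0.11 to 0.84, adjusted p = 0.141), that of NS11021 0.17 ± 0.18 (interval −0.19 to 0.54, 0.861) and that of BMS204352 0.10 ± 0.18 (interval −0.26 to 0.47, 0.79). KCl with NS11021 gave 6.68, 6.66 and 7.36 CPM, a change of 0.52 ± 0.17 (adjusted p = 0.0959), which was called only when the fit held those 6 libraries alone (0.0303).

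Tested directly in a fit of all 36 libraries, the effect of each compound on Cacna1a differed between the lines. The NS11021 effect was lower in E0771 than in AT-3 by 1.04 (log2 −1.04 ± 0.25, interval −1.55 to −0.53, adjusted p = 0.0132), and the BMS204352 effect by 1.84 (log2 −1.84 ± 0.25, interval −2.35 to −1.32, adjusted p = 0.000109). Cacna1a was the 1 gene of the 8 called for each of these differences, where 3.99% and 5.01% of 15969 genes were called (2.5% and 3.12% lower). The NS11021 difference lost its call without replicate 2 of NS11021 in either AT-3 or E0771 (adjusted p = 0.0595 and 0.0626). The KCl effect was larger in E0771 by 0.49 ± 0.24, which was not called (interval −0.01 to 0.99, adjusted p = 0.239), and 0 of the 8 genes were called for that difference, where 9.13% of genes were.

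**Figure D2:**
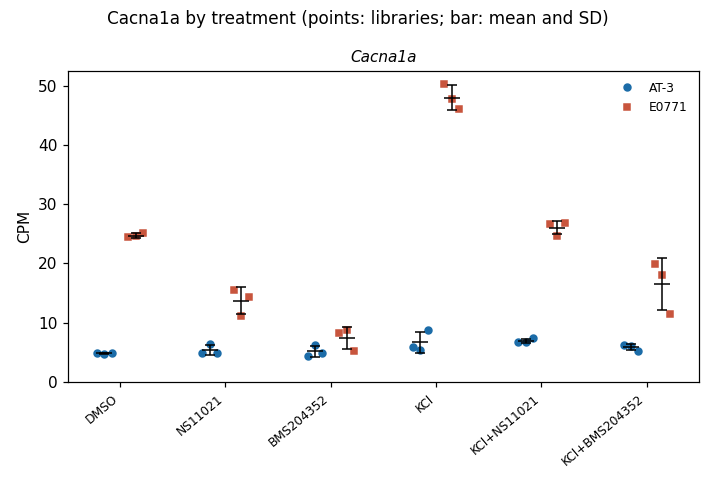
Cacna1a level in CPM in each of the 6 conditions of each line; points are libraries and bars the mean and SD of 3. In E0771 the KCl libraries lie at 46 to 50.2 CPM, those of DMSO at 24.4 to 25.1 and those of BMS204352 at 5.3 to 8.82, while the AT-3 libraries lie between 4.45 and 8.69.

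Cacna1c was higher in all 3 KCl conditions of both lines and was not called for either compound alone. In E0771 it had 32.2, 33.8 and 33.9 CPM in DMSO, 33.2, 34.7 and 30.4 CPM in NS11021, and 30.4, 29.9 and 35.8 CPM in BMS204352. With KCl it had 47.7, 50 and 54 CPM, with KCl and NS11021 51.6, 59 and 56.5 CPM, and with KCl and BMS204352 37.9, 49.6 and 56.1 CPM. The lowest KCl-containing library stood above the highest without KCl, and the conditions within each of these sets overlapped. KCl raised it 1.53-fold (log2 0.62 ± 0.11, adjusted p = 8.75e-05), KCl with NS11021 1.69-fold (0.76 ± 0.11, 7.4e-06) and KCl with BMS204352 1.44-fold (0.52 ± 0.11, 0.000718). Against KCl alone neither compound was called, with log2 differences of 0.14 ± 0.10 (interval −0.07 to 0.36) and −0.09 ± 0.10 (interval −0.31 to 0.13).

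In AT-3, Cacna1c was scarce, at 88 to 388 counts per library. It had 2.5, 3.99 and 2.47 CPM in DMSO, 5.05, 6.08 and 5.17 CPM in KCl, 6.87, 5.2 and 6.56 CPM in KCl with NS11021, and 4.13, 5.61 and 8.22 CPM in KCl with BMS204352. The KCl-containing libraries again lay above all of DMSO. KCl raised it 1.83-fold (log2 0.87 ± 0.25, adjusted p = 0.0492), close to the threshold. The call was lost with DESeq2 size factors (0.0506), with a stricter count filter (0.051), without DMSO replicate 1 or 3, and without any 1 KCl library (adjusted p up to 0.198). KCl with NS11021 raised it 2.1-fold (1.07 ± 0.25, adjusted p = 0.015) and KCl with BMS204352 2-fold (1 ± 0.25, 0.0121). The call for KCl with NS11021 was lost without DMSO replicate 1 or 3 or replicate 1 or 3 of that condition. The call for KCl with BMS204352 was lost without DMSO replicate 1 or 3, and without replicate 3 of that condition (log2 0.68 ± 0.25, adjusted p = 0.111) or the 4 replicate 3 libraries (0.69 ± 0.24, 0.0577). Between the lines the KCl effect differed by −0.27 ± 0.27 (interval −0.83 to 0.29, adjusted p = 0.661).

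Cacnb3 rose with KCl in both lines. AT-3 libraries had 70.4, 77.2 and 73.1 CPM in DMSO and 99.4, 89.3 and 103 CPM in KCl, a 1.33-fold rise (log2 0.41 ± 0.07, adjusted p = 0.00153). E0771 libraries had 31.2, 31.4 and 28.4 CPM in DMSO and 44.9, 43.1 and 43.4 CPM in KCl, a 1.46-fold rise (log2 0.54 ± 0.10, adjusted p = 0.000235). Neither line's groups overlapped. The rise was also called in both combined conditions: in AT-3 to 88.6, 99.9 and 106 CPM with NS11021 (log2 0.43 ± 0.07) and 102, 110 and 105 CPM with BMS204352 (0.52 ± 0.07), and in E0771 to 43.8, 43.2 and 41.7 CPM (0.51 ± 0.10) and 39.2, 40.5 and 43.6 CPM (0.44 ± 0.10). Against KCl alone, no compound effect on Cacnb3 was called in either line.

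Without KCl, NS11021 lowered Cacnb3 1.24-fold in E0771, to 23.8, 23.7 and 25.9 CPM (log2 −0.31 ± 0.11, adjusted p = 0.034). That call was lost without DMSO replicate 1 or 2 and without any 1 NS11021 library (adjusted p 0.053 to 0.114). BMS204352 libraries of E0771 had 30.8, 31.1 and 19.8 CPM, the last being 1 of the replicate 3 libraries that stand apart. The change was −0.15 ± 0.11 (adjusted p = 0.333), and 0.04 ± 0.07 without the 4 libraries. In AT-3 the changes were 0.11 ± 0.07 with NS11021 (adjusted p = 0.768) and 0.17 ± 0.07 with BMS204352 (0.159). The difference between lines in the NS11021 effect was −0.43 ± 0.13 and was not called (adjusted p = 0.0656). It was called without the 4 libraries (−0.40 ± 0.09, adjusted p = 0.00387), with DESeq2's Wald test (0.0457) and when the fit held the compared groups alone (0.00612).

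Cacng4 showed the largest proportional KCl change of the genes in AT-3, number 5 by size of 400 genes called higher whose mean log2 CPM was 2 or more. It had 1.65, 1.87 and 2.38 CPM in DMSO, 7.13, 5.85 and 7.47 CPM in KCl, 6.9, 5.04 and 7.56 CPM in KCl with NS11021, and 5.57, 4.89 and 4.49 CPM in KCl with BMS204352. All KCl-containing libraries lay above all others. The log2 changes against DMSO were 1.79 ± 0.25, 1.73 ± 0.25 and 1.33 ± 0.25 (adjusted p = 0.000169, 3e-04 and 0.00173). With KCl and BMS204352 the libraries lay below those of KCl alone without overlap, but the difference of −0.46 ± 0.24 was not called (interval −0.96 to 0.03, adjusted p = 0.336). Without KCl, NS11021 libraries had 2.74, 3.19 and 2.82 CPM (log2 0.58 ± 0.25, adjusted p = 0.614) and BMS204352 libraries 2.74, 1.09 and 2.16 CPM (0.03 ± 0.26, 0.965). In E0771 the gene fell below the count filter. Its KCl libraries had 0.159, 0.299 and 0.0944 CPM (6, 10 and 4 counts) and its DMSO libraries 0.0488, 0 and 0.0577 CPM (2, 0 and 2 counts), without overlap. In the fit of both lines the KCl effect differed between lines by 0.47 ± 0.82 (interval −1.19 to 2.13, adjusted p = 0.86).

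Trpv6 in AT-3 was the only one of the 8 genes that either compound raised in that line without KCl. The libraries had 13.7, 12.8 and 12 CPM in DMSO, 17.3, 18.3 and 17 CPM in NS11021, 19.7, 20.2 and 22.2 CPM in BMS204352, and 20.4, 17.3 and 15 CPM in KCl. KCl with NS11021 gave 20.6, 19.1 and 18.3 CPM, and KCl with BMS204352 23.1, 25.5 and 26.3 CPM. Every treated library exceeded every DMSO library, and those of KCl with BMS204352 exceeded all others.

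BMS204352 raised Trpv6 1.63-fold (log2 0.70 ± 0.10, adjusted p = 0.00103), the 1 gene of the 8 called for that compound in AT-3, where 5.27% of all genes were called (3.28% higher). With the 6 libraries of the groups compared alone the adjusted p was 0.0717, while without the 4 replicate 3 libraries the change was 0.64 ± 0.11 and the call was kept. NS11021 gave a change of 0.46 ± 0.10 that was not called (adjusted p = 0.138), in a comparison that called 0.0745% of genes and 0 of the 8. It was called without the 4 libraries (0.0187) and with DESeq2 (0.0185). KCl raised Trpv6 1.37-fold (0.46 ± 0.10, adjusted p = 0.013), a call lost without DMSO replicate 3 (0.0698) or KCl replicate 1 (0.0982).

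KCl with NS11021 raised Trpv6 1.52-fold against DMSO (log2 0.60 ± 0.10, adjusted p = 0.00165), and KCl with BMS204352 1.94-fold (0.95 ± 0.10, 5.74e-06). Each of these combined conditions called 4 of the 8 genes higher in AT-3, Cacna1c, Cacnb3, Cacng4 and Trpv6, where 5.03% and 13.1% of all genes were called (3.66% and 7.26% higher). Against KCl alone, adding BMS204352 raised Trpv6 1.41-fold (0.50 ± 0.10, adjusted p = 0.0239), the 1 gene of the 8 called where 1.24% of genes were (0.731% higher). That call was lost with the 6 libraries of the groups compared alone (0.0558) and without KCl replicate 2 or 3 or replicate 2 or 3 of the combined condition (0.0757 to 0.184). Adding NS11021 to KCl called 0 of the 8, where 0.0203% of genes were called. The share of mitochondrial transcripts was 0.687 to 0.792% in the 3 AT-3 libraries with KCl and BMS204352 and 0.49 to 0.608% in the remaining 15, and its part in the Trpv6 result was not tested.

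**Figure D3:**
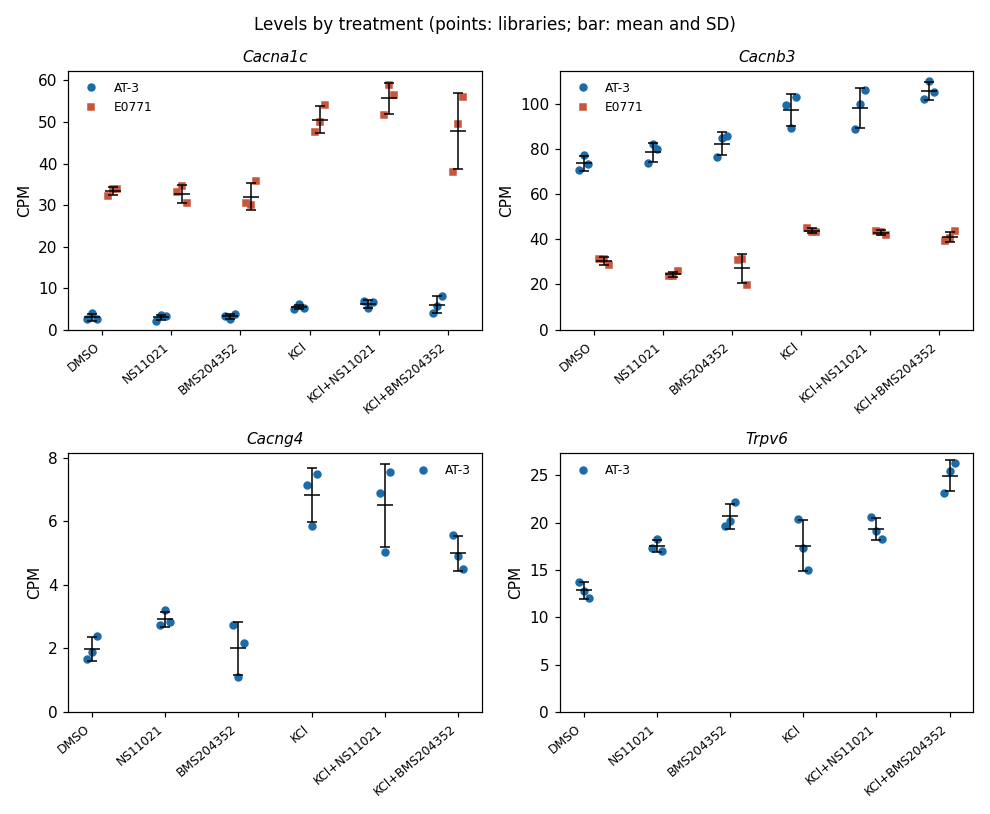
Levels in CPM of Cacna1c and Cacnb3 in both lines and of Cacng4 and Trpv6 in AT-3, by condition; points are libraries and bars the mean and SD of 3. The KCl-containing conditions lie above DMSO in all 4 panels, and Trpv6 also lies above DMSO in both compounds without KCl.

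Few changes of the store-operated genes were called. Stim1 ranged from 91.6 to 119 CPM over the 18 AT-3 libraries and from 62.7 to 85.3 CPM in E0771, and was called in 0 of 18 treatment comparisons over both lines. Its largest change from DMSO in E0771 was 0.12 ± 0.06 with KCl and BMS204352 (adjusted p = 0.121). In AT-3 it was 0.11 ± 0.07 in the same condition (0.318). The intervals of these changes were 0 to 0.24 and −0.03 to 0.24.

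Stim2 ranged from 45 to 61.6 CPM in AT-3 and from 48.6 to 67.5 CPM in E0771. BMS204352 raised it 1.19-fold in E0771, from 51.4, 53.8 and 51.3 CPM in DMSO to 61, 56.7 and 67.5 CPM (log2 0.25 ± 0.06, adjusted p = 0.00442), without overlap. Without the 4 replicate 3 libraries the change was 0.18 ± 0.06 (0.0392). On top of KCl the rise was from 48.9, 48.6 and 54.5 CPM to 56.9, 57.2 and 61.1 CPM (0.19 ± 0.06, adjusted p = 0.0284), and the call was lost without the 4 libraries (0.0728). It was also lost without KCl replicate 1 or 2 and without replicate 3 of KCl with BMS204352 (0.135). Against DMSO, KCl with BMS204352 gave 0.16 ± 0.06 (adjusted p = 0.0513), which was called under 7 of 14 alternatives (adjusted p as low as 0.0351). In AT-3 the BMS204352 libraries had 52.2, 53.5 and 61.6 CPM and those of DMSO 47, 50.5 and 50.9 CPM (0.19 ± 0.07, adjusted p = 0.116).

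Orai1 had 11.8, 14.9 and 12.8 CPM in AT-3 DMSO libraries and 12.2, 13.7 and 10.5 CPM in those of E0771. KCl raised it 1.34-fold in E0771, to 15.3, 14.8 and 18.2 CPM (log2 0.42 ± 0.13, adjusted p = 0.0113), a call lost without DMSO replicate 3 (0.0799) or KCl replicate 3 (0.0901). In AT-3 the KCl libraries had 11.9, 13.2 and 13.6 CPM, a change of −0.02 ± 0.14 (adjusted p = 0.965). The difference between lines was 0.43 ± 0.21 and was not called (interval 0.01 to 0.85, adjusted p = 0.208). With BMS204352 in AT-3 it had 12.9, 17.7 and 19.4 CPM, overlapping DMSO (0.35 ± 0.14, adjusted p = 0.141). In the combined conditions of E0771 it had 13.6, 15.5 and 12.2 CPM with NS11021 and 14.6, 14 and 14.8 CPM with BMS204352, and neither was called against DMSO.

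**Figure D4:**
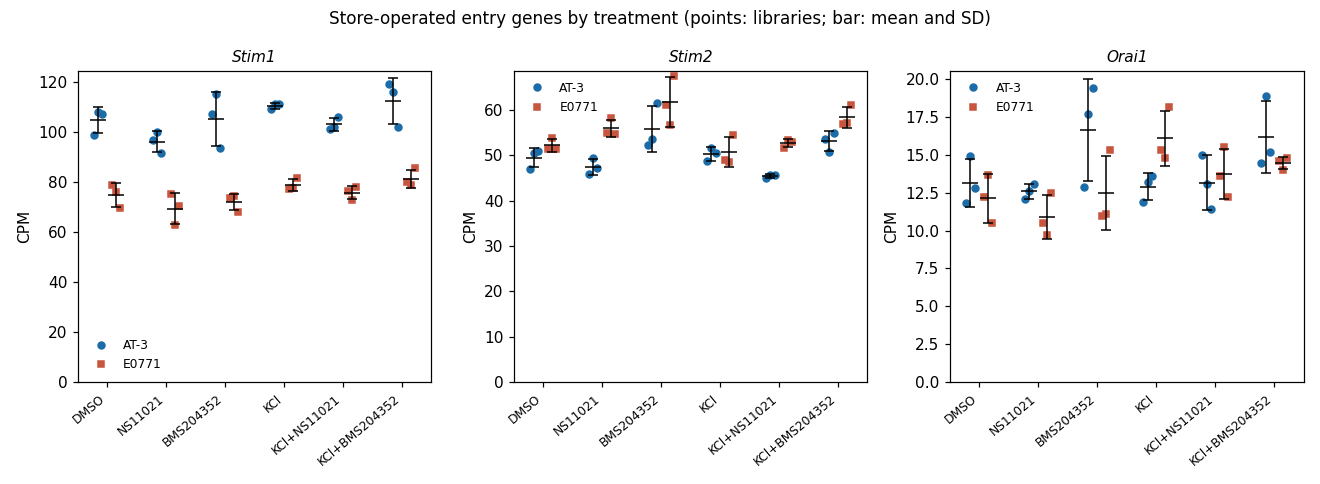
Levels in CPM of Stim1, Stim2 and Orai1 in each condition of each line; points are libraries and bars the mean and SD of 3. Stim1 stays between 91.6 and 119 CPM in AT-3 and between 62.7 and 85.3 in E0771, and the E0771 KCl libraries of Orai1 lie at 14.8 to 18.2.

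In the remaining E0771 comparisons 1 to 3 of the 6 genes tested were called, beside large shares of all genes. NS11021 against DMSO called 2 of 6 lower, Cacna1a and Cacnb3, where 26.3% of genes were called (13.5% lower). BMS204352 against DMSO called 2 of 6, Stim2 higher and Cacna1a lower, where 22.7% were called. KCl with NS11021 against DMSO called 2 of 6 higher, Cacna1c and Cacnb3, where 38.6% were called (19.6% higher), and KCl with BMS204352 called those 2 higher and Cacna1a lower, where 28.6% were. Against KCl, NS11021 called Cacna1a lower, where 17.2% of genes were called (7.66% lower), and BMS204352 called Cacna1a lower and Stim2 higher, where 19.9% were.

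The 2 compounds, which are compared here at the same dose and time with no account of their structures, were set against each other in 4 contrasts, with and without KCl in each line. This gave 28 tests over the genes, with p-values adjusted over all genes of each contrast. With all libraries, Cacna1a in E0771 was the 1 gene called. It was 1.83-fold higher with NS11021 than with BMS204352 (log2 0.87 ± 0.20, adjusted p = 0.038, 1 of 6 genes where 1.76% of all genes were called, 1.13% higher) and 1.6-fold higher with KCl present (0.68 ± 0.18, adjusted p = 0.0449, 1 of 6 where 4.95% were, 3.92% higher). Neither pair of groups overlapped. With only the libraries of the 2 groups the adjusted p values were 0.145 and 0.0841. Leaving out 1 library lost the first call in 4 of 6 cases and the second in 5 of 6, and without the 4 replicate 3 libraries both were kept at smaller sizes (0.68 ± 0.11 and 0.47 ± 0.10). Without those 4 libraries Cacnb3 was also called without KCl (−0.34 ± 0.07, adjusted p = 0.00541, beside 0.597 with all libraries), and Cacna1c with KCl (0.36 ± 0.09, 0.00495, beside 0.259). The Cacna1c difference was also called with no count filter (0.0435) and without replicate 3 of KCl with BMS204352.

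In AT-3, 0 of the 8 genes were called between the compounds without KCl, where 2.94% of genes were, and 0 with KCl, where 0.454% were. The Trpv6 difference, NS11021 minus BMS204352, was −0.24 ± 0.10 without KCl (interval −0.45 to −0.02, adjusted p = 0.226) and −0.35 ± 0.10 with it (interval −0.57 to −0.14, adjusted p = 0.153), and its libraries did not overlap in either. For Orai1 the difference without KCl was −0.40 ± 0.14 (interval −0.69 to −0.11, adjusted p = 0.13), and for Stim2 −0.23 ± 0.07 (interval −0.37 to −0.09, 0.075). Without BMS204352 replicate 1 edgeR called both (adjusted p = 0.0168 for Orai1 and 0.0308 for Stim2). The Stim2 difference was called under 4 of 14 alternatives. The intervals for Cacna1a were −0.29 to 0.44 without KCl and −0.11 to 0.61 with it, so differences within these bounds remained compatible with the data.

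No interaction of KCl with either compound was called for any of the genes tested, 8 in AT-3 and 6 in E0771. In AT-3 edgeR called 0 of the 14772 genes tested for either interaction, with 299 and 533 genes at an unadjusted p below 0.05. DESeq2 also called 0 genes for either. Without the 4 replicate 3 libraries, edgeR called 6 genes for the interaction with BMS204352. In E0771, 0.217% of genes were called for the interaction with NS11021 and 1.62% for that with BMS204352. The largest member value in AT-3 was that of Cacng4 with NS11021, −0.64 ± 0.35 (interval −1.36 to 0.08, adjusted p = 1).

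**Figure D5:**
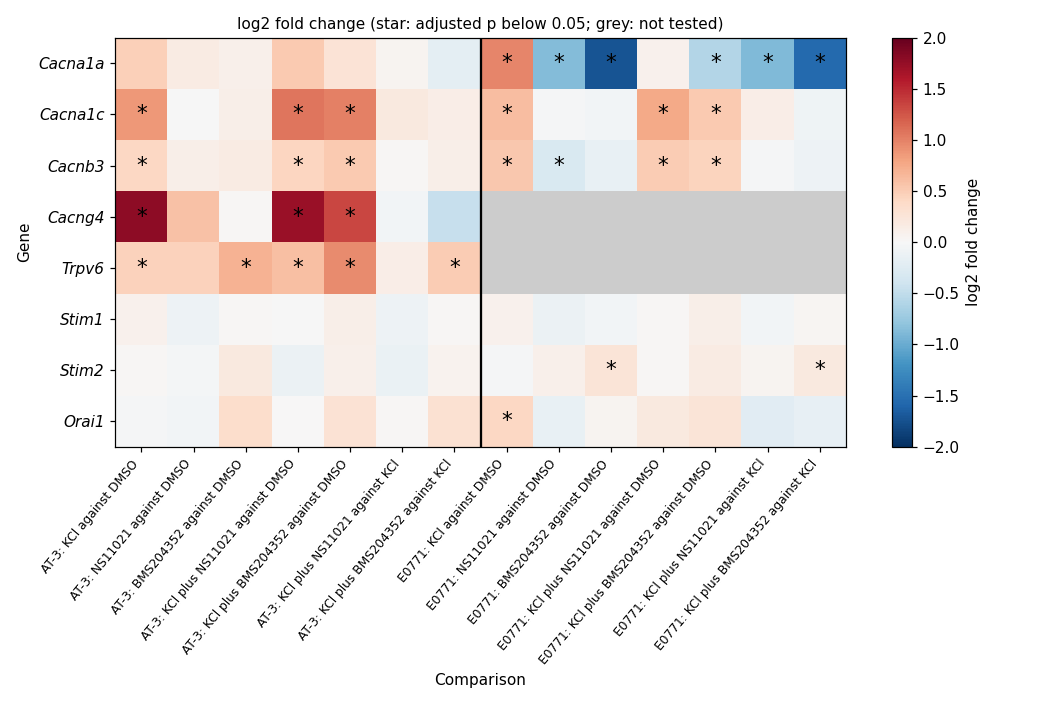
Log2 fold changes of the 8 genes in 7 comparisons of each line, red for higher and blue for lower; stars mark an adjusted p below 0.05 and grey marks genes not tested. The KCl columns hold rises of Cacna1c and Cacnb3 in both lines, and the darkest blue cells are those of Cacna1a with BMS204352 in E0771, at −1.73 and −1.56.

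Other genes of calcium entry, release and export were followed as a list of 103, of which 101 had a row in the table, 70 were tested in AT-3 and 55 in E0771. The list and its parts were set with earlier results of these data known. In AT-3, KCl called 1 of 70 (1.43%, beside 4.83% of all genes), Slc8b1, which encodes the sodium-calcium exchanger of mitochondria (log2 0.68 ± 0.14, adjusted p = 0.00692), from 11.2 ± 1.93 to 17.8 ± 1.98 CPM (n = 3). The 11 other voltage-gated subunit genes tested in AT-3 and the 9 other store-operated genes had 0 called with KCl. BMS204352 called 5 of 70 (7.14%, beside 5.27% of all genes), 4 higher and 1 lower, among them the sodium-calcium-potassium exchanger gene Slc24a3 (−0.58 ± 0.12), the channel gene Trpv3 (0.96 ± 0.23) and the endoplasmic reticulum calcium pump gene Atp2a3 (1.94 ± 0.45). KCl with BMS204352 called 12 of 70 against DMSO (17.1%, beside 13.1% of all genes), all higher (7.26% of all genes were), led by Slc8b1 (0.88 ± 0.14), Trpv3 (1.29 ± 0.23) and the T-type pore gene Cacna1g (1.15 ± 0.22).

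In E0771, KCl called 21 of 55, 11 higher and 10 lower, a share of 38.2% beside 36.4% of all genes. The 3 with the smallest adjusted p were Pkd2, a cation channel of cilia and endoplasmic reticulum (log2 0.62 ± 0.07), Slc8b1 (0.65 ± 0.07, from 34 ± 1.28 to 53 ± 2.33 CPM) and Tmem63a, a mechanically activated channel (0.58 ± 0.06). Pkd2 and Tmem63a were lower with NS11021 (−0.51 ± 0.07 and −0.29 ± 0.06) and with BMS204352 (−0.40 ± 0.07 and −0.35 ± 0.07). Like Cacna1a, then, both were called higher with KCl and lower with each compound. The share of all genes with this pattern was not counted. On the first principal component over all genes in E0771 (31.6% of variance), KCl libraries lay at −41 to −34.3. DMSO lay at 14.7 to 16.7 and the 2 compounds without KCl at 27.6 to 36.9, so this opposition is not particular to calcium genes. NS11021 called 11 of 55 (20%, beside 26.3% of all genes), 6 higher and 5 lower, and BMS204352 14 of 55 (25.5%, beside 22.7%), 8 higher and 6 lower. Of the 4 other voltage-gated subunit genes tested, KCl called 1, Cacng7, higher in E0771, and it was among the leading genes with KCl and NS11021 (0.72 ± 0.07) and with KCl and BMS204352 (0.64 ± 0.07).

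Among other store-operated genes tested in E0771, KCl raised Orai2, another pore gene of that pathway (log2 0.43 ± 0.07), and Cracr2b (0.69 ± 0.19), both named here after their values were seen. With KCl and NS11021 Orai2 was higher by 0.73 ± 0.07 against DMSO and by 0.30 ± 0.07 against KCl (adjusted p = 5.59e-10 and 0.00245). In AT-3 Orai2 had 8.89 ± 0.918 CPM in DMSO and 17.7 ± 3.92 CPM in KCl (log2 1.01 ± 0.30), which was not called (adjusted p = 0.0831), while the change with KCl and BMS204352, to 22.3 ± 4.25 CPM, was (1.32 ± 0.30, 0.0124). In E0771, Itpr3, an inositol trisphosphate receptor gene, was higher when either compound was added to KCl (0.39 ± 0.06 with NS11021 and 0.27 ± 0.06 with BMS204352). Slc8b1 was lower in E0771 when BMS204352 was added to KCl (−0.47 ± 0.07, adjusted p = 2.04e-05). In AT-3 its mean was 17.8 CPM in KCl and 20.7 CPM in KCl with BMS204352.

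For Cacna1c and Cacnb3, called against DMSO in both lines, the most similar genes were sought by the root-mean-square difference of 10 group means of log2 CPM, each relative to the DMSO mean of its line, among 8915 genes tested in both. Nearest to Cacna1c were Sec14l1 (0.13), the clock gene Arntl (0.18) and Slc8b1 (0.191), beside a median of 0.673 over all genes compared. Sec14l1 changed by 0.82 in AT-3 and 0.85 in E0771 with KCl, and Cacna1c by 0.89 and 0.62 on the same scale. Nearest to Cacnb3 were Zbtb4 (0.0616), Ikbip (0.109) and Homer3 (0.113), beside a median of 0.434. Zbtb4 changed by 0.32 and 0.55 with KCl, and Cacnb3 by 0.40 and 0.55. The 10 values of a gene share the DMSO libraries of their line, and the likeness is a description.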

How the data were processed

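RNA was sequenced from 36 libraries, 3 for each of 6 conditions in AT-3 and E0771 cells, after RNA extraction with Qiagen RNeasy and library preparation with the NuGen Universal Plus mRNA kit, per the labels' protocols. The authors deposited raw counts per gene. Reads were aligned to GRCm38 with STAR and counted with featureCounts, per the submitters' processing notes. Tool versions, annotation and strand setting were not given in the sources used here. The 36 count columns each matched a sample title, with 0 left over.

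From the deposited counts, CPM, counts per kilobase of exon and tests were computed. Of 32287 gene IDs, 2 of human form (6 counts) were left out. Symbols came from GENCODE vM21, and 50 IDs without a symbol held 0.000914% of counts. Among counts of 1 to 10, 84.5% were even, as when mates of a pair are counted apart, so halved counts were 1 of the alternatives, and intervals from counts, which cover counting error only, may be too narrow. R 4.3.3 was used with edgeR 4.0.16 (filterByExpr with a minimum count of 10 and total of 15, TMM factors 0.979 to 1.02, robust quasi-likelihood test), with 18 libraries per line and all 36 for differences between lines. Common dispersions were 0.0136 (AT-3) and 0.005 (E0771). In 26 comparisons p-values were adjusted by Benjamini-Hochberg over all genes tested. DESeq2 1.42.0 and DESeq2 size factors, other filters, fits of only the groups compared, the replicate number as a block, leaving out single libraries and leaving out the 4 replicate 3 libraries with BMS204352 were the other alternatives. On simulated counts with 200 changed genes the test of KCl against DMSO recovered 86% in AT-3 and 98.5% in E0771, with 7 and 13 false calls. Every simulated gene had the common dispersion of its line, and only genes above a count limit were changed. These rates therefore do not apply to scarce or more variable genes.

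Named genes were the 8 members, genes of the wider calcium list, and for members called against DMSO in both lines the 3 most similar genes. By rule, at most 3 genes of the wider list with the smallest adjusted p were named per comparison against DMSO or KCl. Others, among them Cacng7, Orai2 and Cracr2b with KCl in E0771, were named outside that rule. Members, lists and tests were chosen with earlier results of these data known. Promoters came from RefSeq (GRCm38.p6). One result on the wider list is not reported here.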

Additional observations from a re-analysis of the deposited data

Results flagged for a closer look

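The effect of each potassium channel opener on Cacna1a differed between the lines in the test of the difference itself, over all 36 libraries. The NS11021 effect differed by −1.04 ± 0.25 (SE, log2, E0771 minus AT-3, edgeR adjusted p = 0.0132). That call was lost without replicate 2 of NS11021 in AT-3 (edgeR adjusted p = 0.0595) or in E0771 (0.0626). Cacna1a went from 24.7 ± 0.381 to 13.6 ± 2.29 CPM in E0771, with all 3 treated libraries below all 3 DMSO libraries, and from 4.84 ± 0.0702 to 5.41 ± 0.903 CPM in AT-3, where the groups overlapped. The BMS204352 effect differed by −1.84 ± 0.25 (edgeR adjusted p = 0.000109), with 7.45 ± 1.88 CPM in E0771 and 5.17 ± 0.956 CPM in AT-3 (SD, n = 3). Without the 4 replicate 3 libraries with BMS204352 this difference was −1.67 ± 0.22. The DMSO level of Cacna1a was 5.09-fold higher in E0771, and its part in the differences was not tested.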

How the results depend on the processing

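Of 40 member results that were called, 27 kept their call under all alternatives run, 13 lost it under at least 1, and 0 reversed. The E0771 changes of Cacna1a with KCl, NS11021 and BMS204352 against DMSO, those of both compounds against KCl, the KCl calls of Cacng4 and Cacnb3, and the line difference of Cacna1a for BMS204352 were among those kept. Of 146 results not called, 9 were called under at least 1 alternative. In 96 group means, 0 moved by more than 1 SD with TMM-scaled CPM.

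The count of the 8 genes called moved by more than 1.5 times as follows; the cause was not tested. Without the 4 replicate 3 libraries it was 1 in place of 0 for NS11021 in AT-3 (Trpv6), 1 in place of 2 for KCl with BMS204352 against KCl in E0771, and 2 in place of 1 for each contrast between the compounds in E0771 and for the line difference of NS11021. DESeq2's Wald test gave 1 in place of 0 for NS11021 against DMSO and against BMS204352 in AT-3, and 2 in place of 1 for the line difference of NS11021. With only the groups compared, which leaves fewer libraries to estimate the spread, it was 0 in place of 1 in AT-3 for BMS204352 against DMSO and for KCl with BMS204352 against KCl, 0 in place of 1 for each contrast between the compounds in E0771, and 2 in place of 1 for the line difference of NS11021. With no filter it was 2 in place of 1 for the compounds with KCl in E0771. Smaller moves were 3 in place of 4 in AT-3, for KCl with DESeq2 size factors or the 1 CPM filter and for KCl with BMS204352 without the 4 libraries; 5 in place of 4 for KCl with NS11021 in AT-3 with only the groups compared; and 4 in place of 3 for KCl with BMS204352 in E0771 under 7 of 14 alternatives (Stim2).

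Leaving out 1 library gave 2 to 4 for KCl in AT-3 (main value 4), 1 to 2 for BMS204352 in AT-3, 0 to 2 for the compounds without KCl in AT-3, 0 to 1 for KCl with BMS204352 against KCl in AT-3, 1 to 2 for NS11021 and for KCl with BMS204352 against KCl in E0771, 0 to 1 for each contrast between the compounds in E0771, and 0 to 1 for the line difference of NS11021.

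Most same-numbered libraries did not deviate together: 3 of 45 pair correlations in AT-3 and 1 of 45 in E0771 exceeded 0.1, with medians of 0.036 and 0.00619. The 3 in AT-3 were the pairs of BMS204352 with KCl plus BMS204352 (0.139, 0.115 and 0.34), and the 1 in E0771 was replicate 3 of the same groups (0.155). With the replicate block the count was 1 in place of 0 for the compounds without KCl in AT-3, and 4 in place of 3 for KCl with BMS204352 against DMSO in E0771.

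Counts over all genes moved in both lines. For BMS204352 in AT-3 the 779 genes became 10 with only the groups compared and 1743 without BMS204352 replicate 1; for KCl the 714 became 393 without DMSO replicate 1 and 1345 without the 4 libraries; for NS11021 the 11 became 0 without DMSO replicate 3 and 146 without the 4 libraries. Those of KCl, NS11021 and BMS204352 in E0771 stayed within 1.5 times; for NS11021 against BMS204352 in E0771 the 235 became 0 with only the groups compared and 419 with no filter. Trpv6 and Cacng4 in E0771, with 0 to 10 counts a library, fell below the count filter.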
